A study of Mus musculus with 19 samples.

Results

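The comparison covers 11 whole mouse kidneys: 7 obstructed kidneys of animals given vehicle and 4 healthy kidneys, out of 19 libraries in the series. The other libraries come from 8 obstructed kidneys of animals given zalfermin, a long-acting analogue of the hormone FGF21. They enter the filter on low counts, the scaling between libraries and the estimate of the spread between samples. Their values are in no group mean given below. Members were taken by the treatment label, Vehicle for the 7 and untreated for the 4. The series' design text calls the model unilateral ureteral obstruction (UUO) and gives the healthy animals as vehicle-treated, whereas in the sample labels the 7 have the condition MASH and the 4 are untreated healthy controls. All animals are mice. The sources used here do not give strain, sex, age, vehicle composition, time since obstruction, litters or days. The p-values set group differences against the spread between kidneys, estimated over all 19 libraries, and take no account of such factors. Libraries were made with a directional kit and sequenced on a NextSeq 500 or 550.

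In UUO a ureter is tied off, urine backs up, and the nephrons above the block are stretched, lose their transport work and in part shrink away while fibroblasts and leukocytes fill the space between tubules. A whole-kidney library mixes the RNA of all these cells, so a gene's level follows both its activity per cell and the make-up of the tissue. Fibrosis genes and nephron-segment markers are the usual readout of this model. The account below is about other families, from calcium-binding proteins to methyl-group metabolism, tRNA synthetases, selenoproteins, scavenger receptors and transcription factors.

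Counts were scaled to library size with edgeR's TMM factors and are given as CPM, the field's usual unit of counts relative to depth, and a gene was called when the Benjamini-Hochberg adjusted p of edgeR's quasi-likelihood test was under 0.05. Of 16026 genes tested, 5799 rose and 4588 fell, which is 36.2% and 28.6% of all genes tested (64.8% in either direction), and 5639 did not pass. At least 2-fold, 3145 genes (19.6%) rose and 1707 (10.7%) fell, or 30.3% in either direction. For 7084 genes (44.2%) the CPM of the 2 groups did not overlap. With so many calls, a family's counts are read against these shares. The median log2 fold change over all tested genes was 0.09, and a family's median, where given, is read against that value. Below, values are mean ± SD in CPM, healthy kidneys (n = 4) first and obstructed kidneys (n = 7) second, unless single values are given, and log2 fold changes are obstructed minus healthy.

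Library totals ran from 13144996 to 14844103 counts. Mitochondrially encoded RNA took 8.77% to 10.2% of counts in healthy kidneys and 1.10% to 4.21% in obstructed ones, and the TMM factors separated the groups in the same way, 0.751 to 0.843 against 1.02 to 1.11. Obstructed kidney 6 stood apart: its log2 CPM correlated at 0.964 with its group's median where the other 6 reached 0.991 to 0.995, and it held the lowest mitochondrial share. Without it 5899 genes rose and 5300 fell. Scaling by library totals alone moved the median of all genes by 0.42 upward, and a correction for GC content and length moved it by 0.23 downward. The share of calls that were rises was 55.8% in the comparison reported here, 80.0% with library totals and 40.2% with the correction. Changes are therefore read against the median of all genes. Some families are described by counts only, and their medians are not all close to it. Among these, medians were 1.79 for scavenger receptors, 2.14 for antimicrobial genes, 0.79 for ETS factors, 0.71 for SOX factors and -0.55 for kallikreins.

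Marker genes of several cell types changed in level. The summed level of 8 proximal tubule markers was 39190 to 55139 CPM in healthy and 7826 to 14136 CPM in obstructed kidneys, and all 8 fell. All 7 fibroblast markers rose, from a sum of 199 to 277 CPM to 2707 to 4864 CPM, and so did all 9 macrophage markers, from 161 to 195 CPM to 1082 to 1400 CPM. T and NK cell markers summed to 7.16 to 10.3 CPM against 24.4 to 39.7 CPM, and neutrophil markers to 1.43 to 2.49 CPM against 11.7 to 26.2 CPM. Of the 5 Schwann cell and nerve markers 3 were tested and none was called, and Th was at 0 reads. A change in the number of cells of a type and a change in RNA per cell cannot be told apart in these libraries. The part that cell make-up plays in the changes below was not tested.

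**Figure D1:**
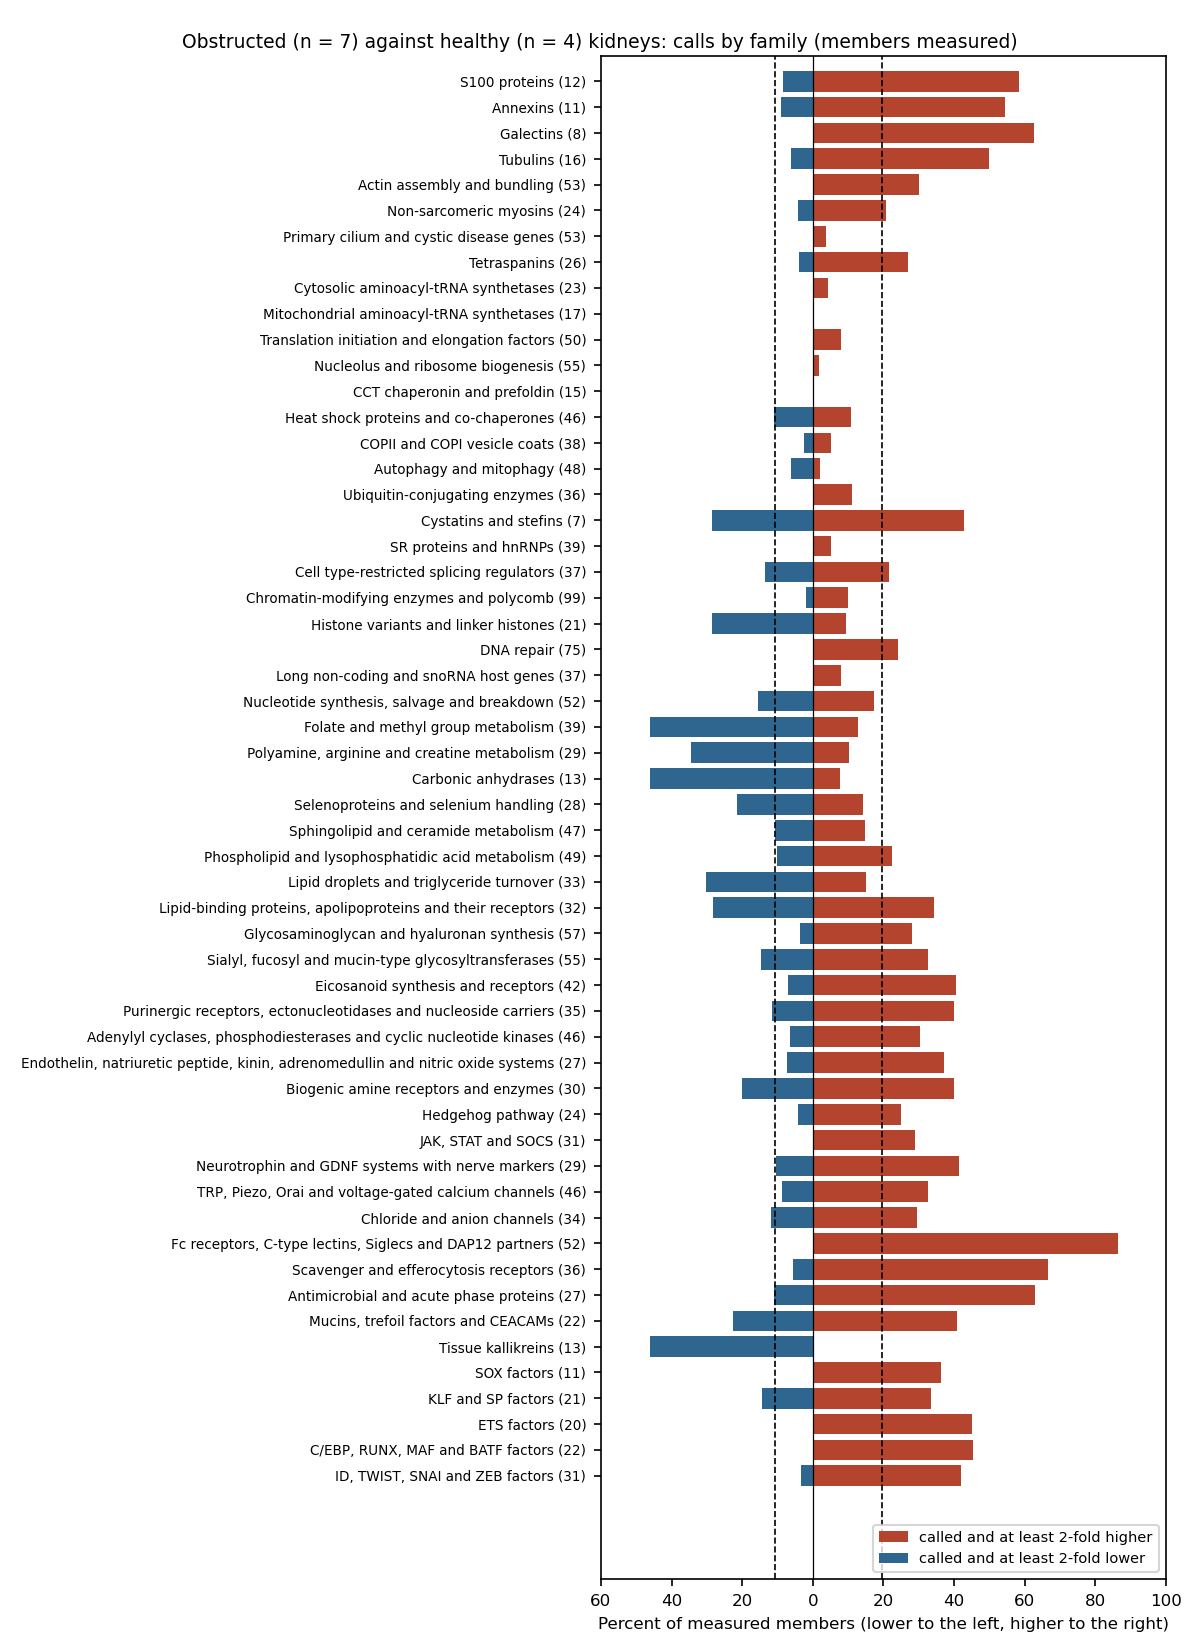
Share of measured members called and at least 2-fold higher (bars to the right, percent) or lower (bars to the left, percent) in 7 obstructed against 4 healthy kidneys, for 55 gene families; dashed lines mark the shares over all 16026 tested genes, 19.6% and 10.7%. Fc receptors, C-type lectins and Siglecs extend farthest to the right, with 45 of 52 members.

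Some regulatory stretches and microRNAs are printed first, because the families they belong to recur below. The stretches are the 250 bases before the annotated starts of Hspb1, Socs3 and S100a11 from RefSeq's table for GRCm38.p6, 5′ to 3′, chosen as the member with the largest rise whose stretch holds the motif searched in its family. Capitals mark the motif: the heat shock element GAANNTTC in Hspb1 (chr5:135887669-135887918, forward strand), the STAT site TTCNNNGAA in Socs3 (chr11:117969367-117969616, reverse strand) and the AP-1 site TGANTCA in S100a11 (chr3:93520246-93520495, forward strand). The microRNAs lie inside non-coding host genes of the same strand that were called, and capitals mark the seed, bases 2 to 8, which pairs with target RNAs.

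Hspb1: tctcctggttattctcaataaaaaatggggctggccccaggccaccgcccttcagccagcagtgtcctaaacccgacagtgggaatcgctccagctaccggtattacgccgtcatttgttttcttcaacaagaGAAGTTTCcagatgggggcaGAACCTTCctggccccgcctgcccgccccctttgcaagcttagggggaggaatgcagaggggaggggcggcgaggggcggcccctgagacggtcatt
Socs3: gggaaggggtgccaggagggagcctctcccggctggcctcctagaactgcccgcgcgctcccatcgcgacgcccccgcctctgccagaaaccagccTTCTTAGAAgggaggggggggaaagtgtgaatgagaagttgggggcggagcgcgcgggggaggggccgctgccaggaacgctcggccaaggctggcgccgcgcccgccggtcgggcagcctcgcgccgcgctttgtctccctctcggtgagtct
S100a11: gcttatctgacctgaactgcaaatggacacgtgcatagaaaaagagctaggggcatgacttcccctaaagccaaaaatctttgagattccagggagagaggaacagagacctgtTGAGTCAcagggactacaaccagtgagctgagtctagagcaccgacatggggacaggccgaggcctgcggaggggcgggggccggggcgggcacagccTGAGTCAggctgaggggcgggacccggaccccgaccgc
miR-99a-5p: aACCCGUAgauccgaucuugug
miR-100-5p: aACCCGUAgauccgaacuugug
miR-125b-5p: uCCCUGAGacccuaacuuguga
miR-199a-3p: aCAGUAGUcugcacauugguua
miR-214-3p: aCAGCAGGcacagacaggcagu
miR-22-3p: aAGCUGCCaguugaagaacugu

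Both strands were searched, and matches that overlap were merged in capitals. The heat shock element was found 2 times before Hspb1 and in 10 of 36 heat shock and co-chaperone genes, against 6.30% of the 11888 tested genes with such a sequence. The STAT site was found before Socs3 alone among 23 JAK, STAT and SOCS genes and before 7.34% of all genes. The AP-1 site was found in 2 of 10 S100 genes and before 6.01% of all genes. An E2F site, TTCCCGC, was found in 12 of 58 DNA repair genes and 7.74% of all genes, and the C/EBP-ATF site TGATGNAA in 0 of 33 folate and methyl group genes and 2.50% of all genes. A match shows that the letters are in the window and no more. Of the microRNAs, miR-99a-5p (chr16:77598940-77598961, in Mir99ahg) and miR-100-5p (chr9:41531437-41531458, in 3110039I08Rik) share the seed ACCCGUA, and both host genes also contain a copy of miR-125b-5p with the same mature letters. The microRNAs miR-199a-3p and miR-214-3p lie in Dnm3os on chromosome 1 and miR-22-3p in Mir22hg on chromosome 11.

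The S100 proteins are small calcium sensors, and their genes sit largely in a cluster on mouse chromosome 3. Of the 12 members measured, 10 rose, 1 fell and 1 did not pass, with a median log2 fold change of 1.43. Without obstructed kidney 2 or 6 the number that fell was 2. S100a6, the calcyclin of growing and fibroblastic cells, stood at 19.5, 21.9, 16.3 and 10.8 CPM in the healthy kidneys and 115 to 171 CPM (median 136) in the obstructed ones. The groups did not overlap, and the difference was log2 fold change of 3.03, SE 0.19, edgeR adjusted p = 5.65e-12. S100a11 went from 63.2 ± 10.3 to 195 ± 24.8 CPM, S100a10, the partner of annexin A2, from 76.1 ± 8.39 to 178 ± 34.4 CPM, and S100a14 from 1.16 ± 0.2502 to 7.67 ± 1.104 CPM. S100a8 and S100a9, the calprotectin pair of neutrophils and monocytes, rose from low levels, 0.224 ± 0.152 to 2.23 ± 1.69 CPM and 0.6298 ± 0.151 to 3.49 ± 2.25 CPM. The groups overlapped for S100a9, whose lowest value was in obstructed kidney 5, and its call was lost with limma's voom with quality weights. The single member that fell was S100g, the vitamin D-dependent calbindin of calcium-transporting epithelium, at 352, 548, 393 and 503 CPM in the healthy kidneys and 36.2 to 84.2 CPM (median 45.8) in the obstructed ones, log2 fold change of -3.09, SE 0.24, edgeR adjusted p = 1.68e-10. Because S100g fell by about as much as the others gained, the summed CPM of the family was 896 ± 129.7 in healthy and 883 ± 121 in obstructed kidneys.

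Annexins bind membrane phospholipid when calcium rises. Here 8 of 11 rose, 1 fell and 2 did not pass (median 1.24), and 2 fell without obstructed kidney 6. Anxa3 showed the largest rise, with 22.8, 17.9, 14.4 and 13.2 CPM in the healthy kidneys and 118 to 159 CPM (median 144) in the obstructed ones, and the groups were separated by more than the range of either one (log2 fold change of 3.05, SE 0.17, edgeR adjusted p = 9.42e-13). Anxa2, which forms a membrane-organising complex with S100a10, rose from 82.6 ± 18.05 to 377 ± 55.4 CPM, Anxa1, an anti-inflammatory mediator, from 14.3 ± 3.11 to 63.2 ± 11.1 CPM, and Anxa5 from 133 ± 15.01 to 320.1 ± 28.9 CPM. Anxa13, an annexin of polarised epithelium, fell from 11.1 ± 0.926 to 2.61 ± 0.586 CPM. Among galectins, lectins that bind beta-galactosides, 5 of 8 rose, 0 fell and 3 did not pass (median 1.95). Lgals3, the macrophage and injured-epithelium galectin, rose from 31.1 ± 5.13 to 143 ± 26.6 CPM, Lgals1 from 67.5 ± 14.7 to 259 ± 59.4 CPM, and Lgals9 from 10.7 ± 2.04 to 41.4 ± 4.78 CPM.

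Tubulins form microtubules. Of 16 genes measured 11 rose, 2 fell and 3 did not pass (median 0.99). Tubb5, Tubb6, Tubb2b and Tuba1a rose, from 63.2 ± 9.41 to 289 ± 46.9 CPM, 5.02 ± 1.301 to 32.7 ± 10.7 CPM, 12.7 ± 2.27 to 61.3 ± 10.6 CPM and 7.65 ± 1.71 to 42.3 ± 9.59 CPM. Tuba4a, another alpha-tubulin isotype, fell, with 187, 243, 209 and 249 CPM in the healthy kidneys and 60.7 to 134 CPM (median 72.2) in the obstructed ones (log2 fold change of -1.41, SE 0.17, edgeR adjusted p = 1.26e-07). The other gene that fell was Tubb4b, from 170.0 ± 35.96 to 116 ± 31.2 CPM, a call lost with library totals. Per kilobase of exon, Tuba4a stood above Tubb5 in healthy kidneys, at 59.98 against 19.01 CPM per kilobase, and below it in obstructed kidneys, at 22.6 against 86.9. Several tubulin genes are close in sequence, so reads may have been divided between them in a way that is not given in the sources used here.

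Of the actin assembly and bundling genes, 32 of 53 rose, 9 fell and 12 did not pass (median 0.40). Tmsb10, a thymosin that holds actin monomers, rose from 14.9 ± 1.35 to 147 ± 38.9 CPM and Tmsb4x, its more abundant relative, from 207 ± 31.6 to 759 ± 88.8 CPM. The actin-capping protein gene Capg rose from 17.4 ± 4.77 to 129 ± 25.5 CPM, the leukocyte coronin Coro1a from 9.39 ± 1.86 to 68.7 ± 8.11 CPM, and Fscn1, the bundler of filopodia, from 8.19 ± 2.27 to 41.4 ± 5.23 CPM. The 9 genes that fell included the components of brush border microvilli Vil1, Eps8 and Espn, which went from 281 ± 20.5 to 181 ± 26.6 CPM, 247 ± 28.2 to 140.0 ± 21.7 CPM and 44.6 ± 5.76 to 25.3 ± 5.29 CPM. Ezr, the ezrin that links microvillar actin to the membrane, rose by 0.33 on the log2 scale, from 541 ± 26.6 to 682 ± 54.9 CPM, and its relative Msn, the moesin of leukocytes and endothelium, by more, from 181 ± 26.7 to 529 ± 42.2 CPM. The call of Ezr was lost with the GC content and length correction. The third of these linkers, Rdx, fell from 324 ± 23.8 to 222 ± 42.7 CPM, a call lost with library totals.

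Non-muscle myosin Myh9 rose from 309 ± 18.7 to 999.96 ± 108 CPM and the leukocyte myosins Myo1f and Myo1g from 2.75 ± 0.363 to 26.99 ± 4.48 CPM and 1.98 ± 0.223 to 14.2 ± 2.005 CPM, whereas the vesicle motors Myo5a and Myo6 fell from 169 ± 37.7 to 74.2 ± 18.2 CPM and 556 ± 38.3 to 379 ± 56.8 CPM. The call of Myo6 was lost with library totals. Of the non-sarcomeric myosins 13 of 24 rose, 6 fell and 5 did not pass. Tetraspanins, membrane organisers, had 13 of 26 members higher, 5 lower and 8 not called, with leukocyte Cd53 rising from 4.09 ± 0.893 to 37.8 ± 12.1 CPM and epithelial Tspan1 falling from 57.6 ± 6.41 to 21.4 ± 5.81 CPM.

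The genes of the primary cilium, the sensory antenna of tubule cells, moved in both directions, mostly by small steps. Of 53 measured, 17 rose, 15 fell and 21 did not pass. The shares that rose and fell, 32.1% and 28.3%, were near the 36.2% and 28.6% over all genes. Only 2 rises were at least 2-fold and no fall was, and the median of 0.03 changes sign between scalings. Foxj1 changed most. This transcription factor switches on the programme of motile, multi-ciliated cells, and it stood at 0.444, 0.532, 0.505 and 0.883 CPM in the healthy kidneys and 13.9 to 25.7 CPM (median 17.7) in the obstructed ones. The lowest obstructed kidney was above the highest healthy one, and the difference was log2 fold change of 4.93, SE 0.27, edgeR adjusted p = 7.88e-13. Pkd1, mutated in polycystic kidney disease, rose from 43.8 ± 7.03 to 95.8 ± 11.6 CPM. Its partner Pkd2, at 282 ± 40.2 and 244 ± 32.7 CPM, did not pass in the comparison reported here. It passed as a fall without obstructed kidney 6 (-0.21 on the log2 scale) or healthy kidney 2 (-0.29). With all kidneys Pkd2 also passed as a fall with DESeq2, RLE scaling and the GC content and length correction. With library totals its change was positive and not called.

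Aminoacyl-tRNA synthetases charge tRNAs with their amino acids, with separate gene sets for the cytosol and for mitochondria. Of 23 cytosolic synthetase and scaffold genes, 5 rose, 3 fell and 15 did not pass, and of 17 mitochondrial ones 0 rose, 14 fell and 3 did not pass. Medians were 0.12 and -0.54, and the first changed sign with the GC and length correction while the second was negative under every setting tried. Without obstructed kidney 6 the cytosolic genes that fell numbered 6. Vars, the valine enzyme, rose from 53.5 ± 3.48 to 112 ± 8.17 CPM, the largest change among cytosolic members. Rars2, the mitochondrial arginine enzyme, had 56.9, 69.97, 68.9 and 77.1 CPM in the healthy kidneys and 28.9 to 42.4 CPM (median 36.3) in the obstructed ones and a log2 fold change of -0.94, SE 0.10, edgeR adjusted p = 1.64e-08. Fars2 fell from 66.9 ± 11.2 to 35.6 ± 8.69 CPM and Nars2 from 23.5 ± 3.21 to 12.95 ± 2.29 CPM.

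**Figure D2:**
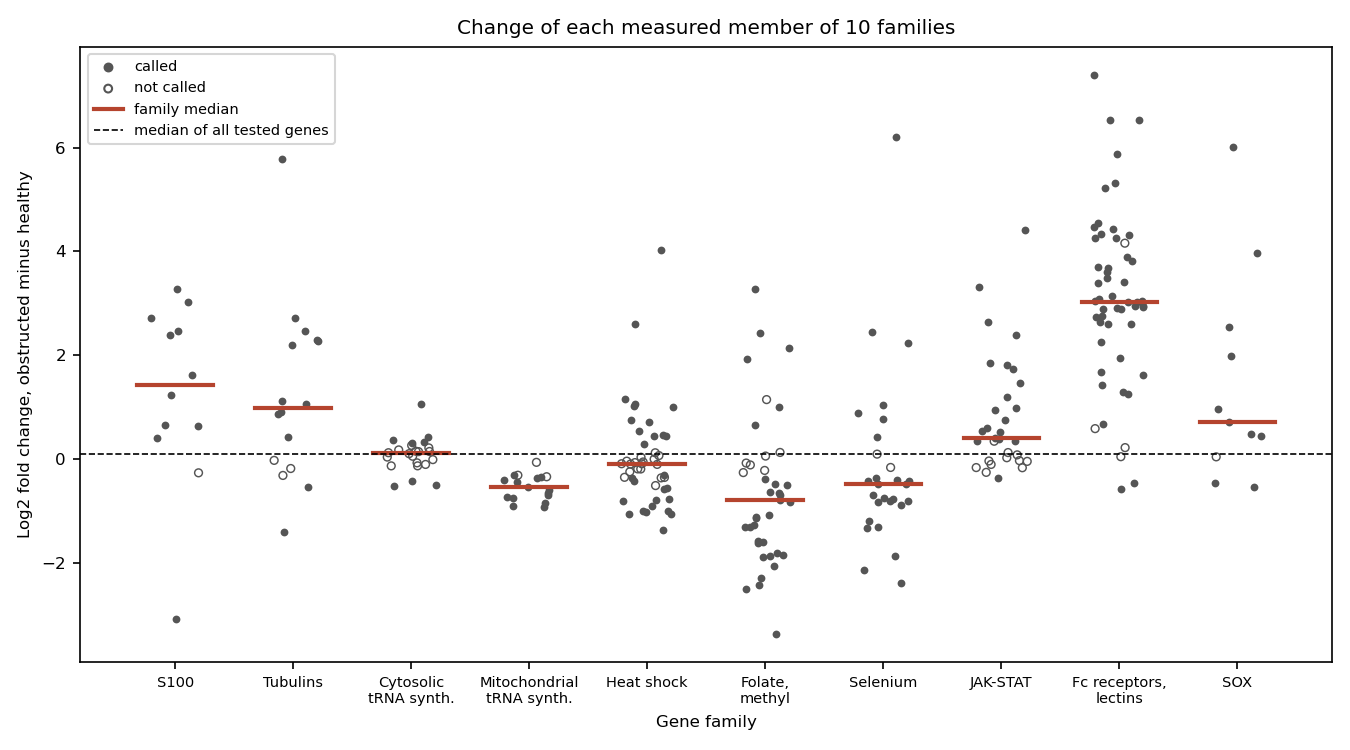
Log2 fold change (obstructed minus healthy, y axis) of every measured member of 10 families (x axis), 1 point per gene, filled where called; the short line is the family's median and the dashed line the median of all 16026 tested genes, 0.09. Mitochondrial synthetases lie below 0 and Fc receptors and lectins mostly above 0.

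Translation factors and ribosome-building genes showed small steps. Of 50 initiation and elongation factor genes 11 rose, 11 fell and 28 did not pass, and without healthy kidney 2 or 4 the number that fell was 7 instead of 11. The repressor of cap-dependent initiation Eif4ebp1 rose from 11.5 ± 1.01 to 40.6 ± 10.3 CPM and the elongation-arrest kinase gene Eef2k from 6.54 ± 2.09 to 18.4 ± 1.27 CPM. Of 55 nucleolar genes 28 rose, 4 fell and 23 did not pass, with a median of 0.26, and 2 fell without healthy kidney 2 or 4. With all kidneys only Myc, their upstream regulator and a member of the list, rose at least 2-fold, from 11.3 ± 4.505 to 51.9 ± 9.76 CPM. The CCT chaperonin folds actin and tubulin. Of its 15 subunit and prefoldin genes 0 rose, 4 fell and 11 did not pass, and the median of -0.11 turned positive with library totals. The number that fell was 2 without healthy kidney 2 or 4 and 7 without obstructed kidney 6.

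Heat shock proteins keep other proteins folded. Of 46 genes 13 rose, 15 fell and 18 did not pass. The shares that rose and fell, 28.3% and 32.6%, were not far from the 36.2% and 28.6% over all genes. The small heat shock protein gene Hspb1, whose product guards actin filaments and unfolded proteins, stood at 5.06, 6.92, 4.21 and 6.48 CPM in the healthy kidneys and 65.1 to 143 CPM (median 89.1) in the obstructed ones, with no overlap and a log2 fold change of 4.02, SE 0.23, edgeR adjusted p = 2.08e-12. Hspb8, its partner in chaperone-assisted autophagy, rose from 6.46 ± 2.04 to 39.3 ± 7.02 CPM. Among those that fell were genes of mitochondrial chaperones: Hspd1 (HSP60) from 726 ± 144 to 279 ± 60.5 CPM, its co-chaperonin Hspe1 from 94.7 ± 16.4 to 45.2 ± 10.1 CPM, Trap1 from 389 ± 38.6 to 185 ± 29.98 CPM, Hspa9 from 1248 ± 94.9 to 621 ± 72.2 CPM and Dnaja3 from 192 ± 26.2 to 93.9 ± 15.1 CPM. The abundant cytosolic chaperone gene Hspa8 did not pass, at 1264 ± 553 and 1104 ± 266 CPM. Hspa1a and Hspa1b, near-identical genes whose reads cannot be assigned with certainty, were called higher. Hspa1b went from 25.1 ± 15.2 to 55.3 ± 40.3 CPM with overlapping groups. Obstructed kidney 4 held 142 CPM of it and the other obstructed kidneys 28.2 to 67.8 CPM. The call of Hspa1b was lost with the GC content and length correction and without healthy kidney 2 (log2 fold change 0.96).

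Vesicle coats carry proteins between the endoplasmic reticulum and the Golgi. Of 38 COPII and COPI genes 5 rose, 15 fell and 18 did not pass. Kdelr3, a receptor that returns escaped proteins to the endoplasmic reticulum, rose from 1.92 ± 0.676 to 18.5 ± 1.904 CPM while its relative Kdelr2, at 78.2 ± 7.26 and 84.03 ± 7.86 CPM, did not pass except as a rise with library totals. Sar1b, the coat GTPase needed for lipoprotein export, fell from 136 ± 10.6 to 66.9 ± 10.99 CPM. In autophagy and mitophagy 7 of 48 genes rose, 21 fell and 20 did not pass. Falls included Pink1, the kinase that marks damaged mitochondria, from 431 ± 46.999 to 179 ± 32.4 CPM, Gabarapl1 from 1034 ± 82.04 to 498 ± 52.3 CPM and Bnip3 from 108 ± 12.6 to 54.04 ± 4.94 CPM. The family's median of -0.22 turned positive with library totals, and those 3 genes kept their direction under every setting tried. Ubiquitin-conjugating enzymes had 9 of 36 genes higher, 9 lower and 18 not called, and 15 were lower without obstructed kidney 6. Ube2c, the mitotic E2 of the anaphase-promoting complex, rose from 1.25 ± 0.376 to 9.98 ± 2.21 CPM and the interferon-linked Ube2l6 from 5.44 ± 0.8298 to 17.5 ± 2.14 CPM. Among cystatins and kininogens, 4 of 7 rose, 2 fell and 1 did not pass, and the kininogen pair moved apart: Kng1 rose from 0.912 ± 0.3202 to 4.96 ± 1.002 CPM and Kng2 fell from 396 ± 53.2 to 169.9 ± 20.96 CPM. Their sequences are close, so that split of reads is uncertain. Hrg, a plasma cystatin relative, fell from 4.71 ± 0.332 to 0.558 ± 0.362 CPM.

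Folate carries single carbons for nucleotide and methionine synthesis, and the proximal tubule also breaks down choline, betaine and glycine by linked mitochondrial steps. Of 39 genes 6 rose, 26 fell and 7 did not pass, with a median of -0.79 and 18 falls of at least 2-fold. Gldc, the decarboxylase of the glycine cleavage system, stood at 128, 141, 112 and 156 CPM in the healthy kidneys and 16.96 to 28.7 CPM (median 23.9) in the obstructed ones (log2 fold change of -2.51, SE 0.19, edgeR adjusted p = 1.77e-10). Dmgdh and Sardh, which strip methyl groups from betaine products, fell from 236 ± 24.2 to 48.2 ± 13.5 CPM and 624 ± 88.6 to 173 ± 48.4 CPM. The methyltransferase gene Bhmt2 fell from 191 ± 21.7 to 45.5 ± 13.1 CPM, and the methyl acceptor enzyme gene Gnmt from 33.1 ± 2.38 to 6.16 ± 2.396 CPM. The transsulphuration genes Cbs and Cth fell from 351 ± 25.5 to 95.6 ± 33.9 CPM and 282 ± 18.2 to 91.02 ± 23.4 CPM, Ahcy, which clears S-adenosylhomocysteine, from 162 ± 21.4 to 43.4 ± 12.3 CPM, and the folate receptor gene Folr1 from 505 ± 59.7 to 202 ± 44.5 CPM.

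A smaller set of the family rose. Mthfd2, a mitochondrial folate enzyme common in embryonic and growing cells and low in most adult tissue, was at 5.95, 5.14, 3.12 and 6.77 CPM in the healthy kidneys and 16.2 to 32.96 CPM (median 23.96) in the obstructed ones, log2 fold change of 2.14, SE 0.23, edgeR adjusted p = 2.67e-08. Mthfd1l, the next mitochondrial enzyme of that route, rose from 1.65 ± 0.247 to 8.98 ± 1.28 CPM and Aldh1l2, the mitochondrial formyl-folate dehydrogenase, from 2.49 ± 1.01 to 9.41 ± 2.43 CPM. Their cytosolic counterparts fell, Mthfd1 from 351 ± 13.4 to 116 ± 19.9 CPM and Aldh1l1 from 779 ± 57.5 to 255 ± 73.2 CPM. Nnmt, which uses methyl groups to inactivate nicotinamide, rose from 0.893 ± 0.165 to 8.77 ± 1.94 CPM. Phgdh, the entry to serine synthesis, rose from 10.9 ± 1.31 to 21.96 ± 5.53 CPM. Psat1, the step after it, at 50.1 ± 7.05 and 41.7 ± 11.96 CPM, did not pass in the comparison reported here. It passed as a fall without obstructed kidney 6 (-0.42 on the log2 scale). With all kidneys Psat1 also passed as a fall with limma's voom with quality weights and the GC content and length correction. With library totals its change was positive and not called.

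Several abundant arginine and creatine genes fell. Gatm, the first enzyme of creatine synthesis and chiefly a kidney gene, was at 1145, 1237, 1098 and 1272 CPM in the healthy kidneys and 107 to 209.7 CPM (median 144) in the obstructed ones, log2 fold change of -3.01, SE 0.25, edgeR adjusted p = 5.80e-10. Ass1 and Asl, which make arginine for the body in the proximal tubule, fell from 1795 ± 226 to 290.2 ± 83.8 CPM and 235 ± 30.99 to 107 ± 10.6 CPM, and Odc1, the first enzyme of polyamine synthesis, from 1042 ± 689 to 270.0 ± 120.2 CPM. Over the family 6 of 29 rose, 15 fell and 8 did not pass, and the median of -0.39 turned positive (0.0403) with library totals. Arg2, a mitochondrial arginase, rose from 10.8 ± 1.25 to 59.8 ± 12.8 CPM and the spermine oxidase gene Smox from 7.17 ± 0.404 to 38.8 ± 9.59 CPM. Arg1, the arginase of liver and of macrophages, gave 2 reads over all healthy kidneys and 0.652 to 22.1 (median 1.84) CPM in obstructed ones, and its highest value was in obstructed kidney 6.

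The nucleotide list covers synthesis, salvage and breakdown. Of 52 genes 17 rose, 19 fell and 16 did not pass, or 32.7% and 36.5% higher and lower beside 36.2% and 28.6% over all genes. Rrm2, the limiting subunit of ribonucleotide reductase, rose from 6.92 ± 1.97 to 23.7 ± 3.42 CPM, the salvage kinase genes Dck and Tk1 from 5.69 ± 1.03 to 15.96 ± 2.34 CPM and 4.75 ± 1.999 to 12.2 ± 3.37 CPM, and Ctps from 39.1 ± 11.2 to 100.6 ± 18.4 CPM. The pyrimidine breakdown genes Dpyd, Dpys and Upb1, which act in that order, all fell, from 126 ± 8.23 to 61.4 ± 9.57 CPM, 24.1 ± 4.08 to 5.08 ± 1.96 CPM and 212 ± 22.1 to 44.9 ± 10.02 CPM. Xdh, which makes uric acid, rose from 24.6 ± 4.53 to 61.4 ± 7.55 CPM.

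Carbonic anhydrases interconvert carbon dioxide and bicarbonate for acid handling. Of 13 genes 2 rose, 9 fell and 2 did not pass (median -0.84). Car14 and Car4, membrane forms of the proximal tubule, fell from 111 ± 7.33 to 18.8 ± 8.03 CPM and 212 ± 54.2 to 58.8 ± 18.6 CPM, Car12 from 356 ± 21.2 to 139 ± 16.2 CPM and the cytosolic Car2 from 474 ± 45.04 to 265 ± 31.2 CPM. Car9, known elsewhere as a hypoxia gene, fell from 10.7 ± 2.65 to 2.53 ± 0.695 CPM. The cytosolic form Car13 rose from 3.59 ± 0.484 to 19.1 ± 3.703 CPM, and the catalytically inactive relative Car11 from 2.43 ± 0.558 to 4.56 ± 1.27 CPM, a call lost with limma's voom with quality weights.

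Selenoproteins contain selenocysteine, and the proximal tubule secretes some of them to plasma. Of 28 genes 7 rose, 19 fell and 2 did not pass (median -0.49). The list does not hold the more abundant glutathione peroxidase gene Gpx3, at 23568 ± 3099 and 6829 ± 1273 CPM. Sephs2, Sepsecs, Pstk and Eefsec, genes of selenocysteine synthesis and insertion, fell from 559.7 ± 64.9 to 221 ± 28.6 CPM, 78.3 ± 9.54 to 44.5 ± 5.91 CPM, 18.5 ± 2.37 to 10.98 ± 1.62 CPM and 45.5 ± 5.36 to 25.8 ± 5.66 CPM, and Selenop, the plasma selenium carrier, fell from 3656 ± 811 to 1602 ± 199 CPM. Of the thyroid hormone deiodinase genes 1 fell and 2 rose. Dio1, the renal enzyme, fell from 44.4 ± 10.6 to 10.1 ± 2.26 CPM. Dio2, which makes active thyroid hormone inside cells, stood at 0.711, 0, 0.0842 and 0.294 CPM in the healthy kidneys and 8.02 to 39.1 CPM (median 18.9) in the obstructed ones, log2 fold change of 6.20, SE 0.70, edgeR adjusted p = 6.61e-08, or 7.31 without healthy kidney 1, and every obstructed kidney was above every healthy one. Dio3, which inactivates the hormone, rose from 0.483 ± 0.232 to 2.34 ± 1.92 CPM, with overlapping groups and its 2 highest values in obstructed kidneys 6 and 7. Per kilobase of exon, Dio1 and Dio2 stood at 22.6 and 0.0468 CPM in healthy and at 5.12 and 3.52 CPM in obstructed kidneys. Selenon, a selenoprotein of the endoplasmic reticulum linked to muscle disease, rose from 6.79 ± 1.33 to 37.01 ± 4.37 CPM.

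Of 32 lipid-binding and apolipoprotein genes 13 rose, 14 fell and 5 did not pass, and the median of 0.30 turned negative without obstructed kidney 6 (-0.088) and with limma's voom with quality weights (-0.11). Apoe rose from 196 ± 43.5 to 1197 ± 109.9 CPM, the sterol exporters Abca1 and Abcg1 from 27.7 ± 11.5 to 183 ± 39.9 CPM and 9.41 ± 2.75 to 29.8 ± 3.26 CPM, and Pltp from 9.51 ± 2.28 to 65.6 ± 8.27 CPM. Stra6, the retinol uptake receptor, rose from 4.302 ± 1.05 to 51.9 ± 8.91 CPM. Apom, which carries sphingosine-1-phosphate in plasma and is made in proximal tubule and liver, had 74.7, 93.3, 94.5 and 95.3 CPM in the healthy kidneys and 8.14 to 15.8 CPM (median 10.2) in the obstructed ones (log2 fold change of -3.02, SE 0.17, edgeR adjusted p = 1.86e-12). Apob fell from 409 ± 101.3 to 166 ± 31.2 CPM and its loading partner Mttp from 29.1 ± 3.85 to 12.3 ± 1.45 CPM. In lipid droplets, 11 of 33 genes rose, 15 fell and 7 did not pass: Lpl fell from 1257 ± 683 to 328 ± 92.01 CPM and Dgat2 from 202 ± 24.7 to 81.1 ± 15.9 CPM, and the lipase inhibitor gene Angptl4 rose from 29.95 ± 9.23 to 97.2 ± 22.4 CPM and the droplet coat gene Plin2 from 95.3 ± 18.2 to 184 ± 48.8 CPM.

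Sphingolipid genes moved both ways, with 19 of 47 higher, 21 lower and 7 not called. Among those that rose were the sphingosine kinase gene Sphk1 from 7.04 ± 1.77 to 28.1 ± 4.74 CPM, the sphingosine-1-phosphate exporter gene Spns2 from 78.2 ± 4.59 to 289 ± 31.4 CPM and the receptor gene S1pr2 from 3.87 ± 0.744 to 26.997 ± 3.096 CPM. Smpdl3b, a membrane phosphodiesterase of macrophages and podocytes, rose from 0.966 ± 0.274 to 16.4 ± 2.84 CPM, while its secreted relative Smpdl3a fell from 547 ± 76.04 to 183 ± 20.4 CPM. Among phospholipid genes 16 of 49 rose, 21 fell and 12 did not pass. Lysophosphatidic acid, a lipid signal linked to fibrosis, is made by autotaxin, whose gene Enpp2 fell from 527 ± 72.8 to 140.2 ± 15.6 CPM, and of its receptors Lpar1 rose from 5.07 ± 1.75 to 17.7 ± 4.48 CPM and Lpar3 fell from 43.3 ± 4.99 to 10.7 ± 3.72 CPM. Chpt1, a phosphatidylcholine synthase gene and abundant in healthy kidneys, fell from 3297 ± 296 to 925 ± 289 CPM.

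Hyaluronan is a long sugar polymer of loose matrix. Cd44, its main receptor, was at 2.04, 1.42, 1.01 and 3.14 CPM in the healthy kidneys and 93.5 to 169 CPM (median 133) in the obstructed ones, a log2 fold change of 6.16, SE 0.26, edgeR adjusted p = 2.94e-14. The groups did not overlap. The degrading enzyme gene Cemip rose from 0.481 ± 0.343 to 5.96 ± 1.11 CPM, and the motility receptor gene Hmmr, also a mitotic gene, from 1.18 ± 0.558 to 10.1 ± 2.32 CPM. For the synthase Has2 only 2 reads were counted over the 4 healthy kidneys, against 0.535 to 1.89 (median 0.819) CPM in obstructed ones. Over the whole glycosaminoglycan list 26 of 57 rose, 13 fell and 18 did not pass, with the sulphate donor gene Papss2 falling from 456 ± 58.96 to 139 ± 13.3 CPM and the heparan sulphatase Sulf1 rising from 4.16 ± 1.001 to 25.2 ± 7.03 CPM.

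Enzymes that place sialic acid, fucose and mucin-type sugars gave calls in both directions: 30 of 55 rose, 16 fell and 9 did not pass, with 18 rises and 8 falls of at least 2-fold, or 32.7% and 14.5% beside 19.6% and 10.7% over all genes. St8sia2 and St8sia4 make polysialic acid, a coat of embryonic and leukocyte surfaces. St8sia4 rose from 2.54 ± 0.895 to 14.7 ± 6.38 CPM, and St8sia2 from a very low 0.114 ± 0.0545 to 2.64 ± 0.6096 CPM. St6gal1 rose from 19.6 ± 2.48 to 71.9 ± 3.27 CPM. Galnt11 and Fut9, abundant in healthy kidney, fell from 861 ± 119 to 246 ± 91.5 CPM and 669 ± 88.3 to 230.4 ± 93.3 CPM.

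**Figure D3:**
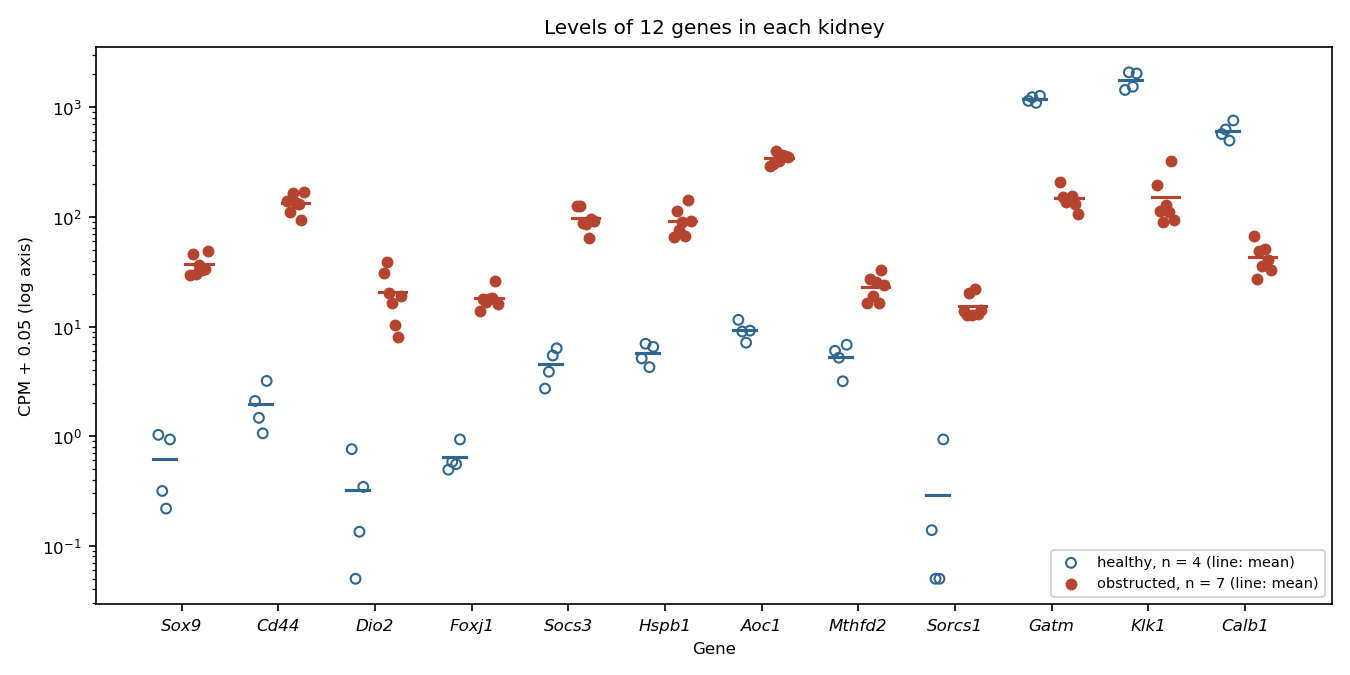
CPM (log axis, after adding 0.05 for display) of 12 genes in each of 4 healthy kidneys (open circles) and 7 obstructed kidneys (filled circles); bars mark the group means. Sox9, Cd44, Dio2, Foxj1, Socs3, Hspb1, Aoc1, Mthfd2 and Sorcs1 lie higher in every obstructed kidney than in any healthy one, and Gatm, Klk1 and Calb1 lie lower.

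Eicosanoids are lipid mediators made from arachidonic acid. Of 42 eicosanoid genes 22 rose, 10 fell and 10 did not pass. Among prostaglandin E2 receptors, Ptger3, which acts against vasopressin in the distal nephron, fell from 131 ± 31.4 to 27.4 ± 5.42 CPM, while Ptger4 rose from 4.36 ± 1.24 to 22.2 ± 3.33 CPM. The leukotriene genes Alox5ap and Cysltr1 rose from 3.14 ± 0.581 to 24.7 ± 2.11 CPM and 1.22 ± 0.236 to 9.59 ± 3.64 CPM, Hpgds, the haematopoietic prostaglandin D synthase, from 1.297 ± 0.268 to 15.2 ± 4.16 CPM, and Ptgs2, the inducible cyclooxygenase, from 0.463 ± 0.303 to 3.48 ± 0.995 CPM. Ephx2, which inactivates epoxyeicosanoids, fell from 731 ± 155 to 234 ± 66.3 CPM.

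Extracellular ATP signals danger through purinergic receptors. Of 35 genes 16 rose, 13 fell and 6 did not pass, 14 rises being at least 2-fold. The ATP release channel gene Panx1 rose from 1.29 ± 0.268 to 12.5 ± 1.27 CPM, the inflammasome-linked ion channel receptor P2rx7 from 2.31 ± 0.7703 to 14.97 ± 2.18 CPM and the UDP receptor P2ry6 from 1.83 ± 0.6803 to 17.1 ± 1.92 CPM. Of the enzymes that cleave nucleotides and other phosphates, Entpd1, which degrades extracellular ATP, rose from 9.605 ± 1.698 to 26.6 ± 4.29 CPM. Nt5e, which turns AMP into adenosine, fell from 320.1 ± 67.03 to 212 ± 32.95 CPM, a call that was lost with library totals, and Entpd5 and Alpl fell from 706 ± 71.6 to 289 ± 63.2 CPM and 335 ± 22.4 to 166 ± 25.99 CPM. In cyclic nucleotide signalling 27 of 46 rose, 6 fell and 13 did not pass, and 10 fell without obstructed kidney 6. Adcy7, the leukocyte cyclase, rose from 4.53 ± 0.779 to 41.3 ± 6.43 CPM, and the nitric oxide receptor subunits Gucy1a1 and Gucy1b1, genes of mesenchymal and smooth muscle cells, from 22.04 ± 6.87 to 117 ± 41.5 CPM and 8.04 ± 2.77 to 22.1 ± 4.96 CPM. Phosphodiesterase genes Pde4c, Pde1a and Pde9a fell from 127 ± 9.49 to 52.9 ± 8.24 CPM, 108 ± 11.5 to 42.6 ± 4.97 CPM and 50.3 ± 4.36 to 19.4 ± 2.02 CPM.

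Among vasoactive systems Edn1, the endothelin-1 gene, was at 4.09, 5.41, 3.45 and 2.75 CPM in the healthy kidneys and 30.96 to 48.7 CPM (median 39.95) in the obstructed ones, with a log2 fold change of 3.33, SE 0.16, edgeR adjusted p = 1.60e-13. Its receptor Ednra, of vessels and mesenchyme, rose from 2.702 ± 1.59 to 14.2 ± 4.39 CPM and Ednrb from 16.4 ± 7.38 to 31.3 ± 6.48 CPM. Corin, the protease that activates natriuretic peptide, fell from 14.1 ± 5.89 to 0.802 ± 0.453 CPM. The kinin receptor gene Bdkrb2 rose from 1.45 ± 0.573 to 8.42 ± 1.88 CPM, Gch1, the enzyme that makes the nitric oxide synthase cofactor, from 1.11 ± 0.387 to 7.803 ± 1.495 CPM and the apelin receptor Aplnr from 5.86 ± 0.608 to 30.9 ± 2.65 CPM. Of the 2 enzymes that clear the nitric oxide synthase inhibitor, Ddah1 fell from 381 ± 30.02 to 160.3 ± 14.7 CPM and Ddah2 rose from 15.3 ± 1.304 to 49.3 ± 9.91 CPM. Across the group 15 of 27 rose, 5 fell and 7 did not pass.

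Aoc1, the diamine oxidase that breaks down histamine and putrescine, stood at 11.5, 8.96, 7.07 and 9.12 CPM in the healthy kidneys and 293 to 397 CPM (median 355) in the obstructed ones, log2 fold change of 5.23, SE 0.16, edgeR adjusted p = 1.81e-16. The gene lies on chromosome 6, 48872896 to 48909188 on the forward strand of GRCm38, and the groups were separated by a wide gap. Hnmt, the other enzyme of histamine breakdown, fell from 33.7 ± 5.38 to 12.5 ± 3.97 CPM, and Ddc, which makes dopamine in the proximal tubule, fell from 174 ± 16.6 to 51.4 ± 6.17 CPM. Histamine synthesis, read by Hdc, rose from a low and variable 0.397 ± 0.4604 to 2.08 ± 0.907 CPM, with a log2 fold change of 2.34, or 3.47 without healthy kidney 1. Of 30 genes 13 rose, 13 fell and 4 did not pass.

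Hedgehog signalling is read by its targets Gli1 and Ptch1. Gli1 rose from 0.554 ± 0.369 to 3.94 ± 0.909 CPM, but Ptch1, at 53.9 ± 5.75 and 44.7 ± 7.43 CPM, fell slightly, with a log2 fold change of -0.27 that turned positive with library totals and lost its call under 9 other settings of 21. Scube1, a secreted co-factor, rose from 1.61 ± 1.42 to 18.9 ± 4.29 CPM, with a log2 fold change of 3.54 that was 4.38 without healthy kidney 1. The ligand Ihh rose from 20.01 ± 2.52 to 36.6 ± 5.56 CPM and Shh, at 0.977 ± 0.267 and 0.672 ± 0.197 CPM, did not pass. In the pathway 12 of 24 rose, 5 fell and 7 did not pass.

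JAK and STAT genes carry signals of cytokine receptors, and 19 of 31 rose, 1 fell and 11 did not pass, or 61.3% and 3.23% of members beside 36.2% and 28.6% of all genes, and 2 fell without healthy kidney 4 or obstructed kidney 6. Socs3, the feedback inhibitor induced by STAT3, was at 2.67, 3.81, 5.39 and 6.28 CPM in the healthy kidneys and 63.7 to 126 CPM (median 91.2) in the obstructed ones, and every obstructed kidney was above every healthy one (log2 fold change of 4.42, SE 0.23, edgeR adjusted p = 3.06e-13). Osmr, the oncostatin M receptor, rose from 10.9 ± 2.63 to 109 ± 17.004 CPM, its signalling partner Il6st (gp130) from 216 ± 19.8 to 416 ± 27.4 CPM and Stat3 from 72.9 ± 8.12 to 242 ± 10.7 CPM. Lifr, which pairs with the same partner, was at 105 ± 7.06 and 93.1 ± 16.01 CPM and did not pass, except as a fall with the GC content and length correction. Stat5a and Stat5b did not pass either.

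In the neurotrophin list 12 of 29 rose, 5 fell and 12 did not pass. Sorcs1, a sorting receptor of the sortilin family best known from neurons, was near the limit of detection in healthy kidneys and not in obstructed ones, with 0.0889, 0, 0 and 0.883 CPM in the healthy kidneys and 12.7 to 21.98 CPM (median 13.7) in the obstructed ones (log2 fold change of 6.05, SE 0.43, edgeR adjusted p = 4.36e-11). Of its 10 reads in healthy kidneys 9 came from kidney 4, and without it the log2 fold change was 8.68. Its relative Sorcs2 rose from 0.6696 ± 0.1997 to 10.6 ± 2.42 CPM. The neurotrophin receptor gene Ngfr rose from 1.74 ± 0.562 to 9.88 ± 2.699 CPM. The stress hormone gene Gdf15 rose from 12.7 ± 3.698 to 47.1 ± 25.5 CPM. The nerve gene Stmn2 did not pass.

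Calcium enters distal tubule cells through channels, is carried by calbindin and leaves by exchangers and pumps. Calb1, the calbindin that carries calcium through distal tubule cells, was at 570.1, 627, 496 and 758 CPM in the healthy kidneys and 27.1 to 67.5 CPM (median 40.3) in the obstructed ones (log2 fold change of -3.83, SE 0.33, edgeR adjusted p = 1.14e-09), and the entry channel genes Trpv5 and Trpv6 rose from 22.95 ± 4.201 to 68.4 ± 15.1 CPM and 2.23 ± 0.445 to 14.6 ± 4.23 CPM. The exit transporter Slc8a1 fell from 211 ± 22.5 to 87.6 ± 23.02 CPM. The stretch-gated channel gene Piezo2 rose from 3.58 ± 0.778 to 20.1 ± 5.72 CPM and the more abundant Piezo1 from 109 ± 7.31 to 177 ± 28.9 CPM, and the call of Piezo1 was lost with the GC content and length correction. Of 46 channel and calcium-handling genes, Calb1 among them, 22 rose, 13 fell and 11 did not pass. Among chloride and anion channels 18 of 34 rose, 12 fell and 4 did not pass. Clca3a1 rose from 3.18 ± 1.13 to 47.8 ± 13.9 CPM, a gene with close copies whose reads may be shared.

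Receptors of the myeloid cell surface were next. Of 52 Fc receptor, lectin, Siglec and DAP12-partner genes 46 rose, 2 fell and 4 did not pass, 45 at least 2-fold, with a median of 3.03. Many of these are genes of macrophages and their kin, and the part that cell number plays in the rises was not tested. The macrophage markers summed above rose by unlike amounts. Csf1r went from 97.2 ± 7.88 to 162 ± 21.7 CPM and Lyz2 from 27.2 ± 4.78 to 451 ± 32.8 CPM. Fcrls, a scavenger-type Fc receptor relative, was at 0, 0.177, 0.253 and 0.294 CPM in the healthy kidneys and 23.1 to 39.3 CPM (median 31.9) in the obstructed ones (log2 fold change of 7.40, SE 0.43, edgeR adjusted p = 1.86e-12). Trem2, the lipid-sensing receptor of tissue macrophages, rose from 0.227 ± 0.223 to 9.34 ± 2.02 CPM, its adaptor Tyrobp (DAP12) from 5.29 ± 0.724 to 40.6 ± 5.59 CPM, and Siglec1 from 0.279 ± 0.282 to 16.4 ± 4.32 CPM. The healthy levels rest on 10 reads for Trem2 and 12 for Siglec1. The log2 fold change of Trem2 was 5.32, or 6.18 without healthy kidney 1, and that of Siglec1 5.88, or 6.48 without healthy kidney 4. Mrc1 and the fibroblast collagen receptor Mrc2 rose from 4.23 ± 0.791 to 80.5 ± 25.97 CPM and 24.2 ± 5.21 to 181 ± 19.2 CPM. The inhibitory receptor Fcgr2b, at 57.5 ± 2.23 and 66.8 ± 12.5 CPM, was not called, with a log2 fold change of 0.22, and passed at 0.23 without obstructed kidney 6. With all kidneys Fcgr2b also passed as a rise with library totals and with limma's voom with quality weights. The activating receptor genes Fcgr1, Fcgr3 and Fcgr4 rose from 1.197 ± 0.404 to 26.02 ± 2.17 CPM, 3.44 ± 0.633 to 45.1 ± 5.01 CPM and 1.87 ± 0.303 to 15.4 ± 1.42 CPM. Fcgrt, the neonatal Fc receptor of epithelium and endothelium, fell from 248 ± 33.9 to 179 ± 30.6 CPM, a call lost with library totals.

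Scavenger and efferocytosis receptors clear dead cells. Here 28 of 36 rose, 5 fell and 3 did not pass. Axl rose from 31.2 ± 6.16 to 192 ± 22.9 CPM and Tyro3 from 4.16 ± 0.331 to 10.1 ± 1.44 CPM, whereas their relative Mertk fell from 66.1 ± 8.26 to 45.6 ± 4.56 CPM, a call lost with library totals. The shared ligand Pros1 rose from 24.9 ± 4.21 to 117 ± 30.03 CPM. Gas6, at 542 ± 65.04 and 484 ± 51.6 CPM, did not pass in the comparison reported here. It passed as a fall without obstructed kidney 6 (-0.25 on the log2 scale). With all kidneys Gas6 also passed as a fall with DESeq2, RLE scaling, limma's voom with quality weights and the GC content and length correction. With library totals it passed as a rise. Msr1 rose from 0.432 ± 0.156 to 7.77 ± 1.196 CPM and Colec12 from 17.6 ± 6.305 to 118 ± 30.1 CPM, while Cd36, which the healthy tubule also expresses, fell from 874 ± 269 to 278 ± 84.6 CPM. Cd163 varied, at 1.04 to 11.9 (median 1.71) CPM in obstructed kidneys, with its highest value in obstructed kidney 7. Its log2 fold change was 3.59, or 2.62 without that kidney.

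Of antimicrobial and acute phase genes 17 of 27 rose, 4 fell and 6 did not pass. Cp, the copper-carrying ferroxidase ceruloplasmin, rose from 82.1 ± 26.1 to 812 ± 208 CPM, Lbp, which presents bacterial lipopolysaccharide to Cd14, from 4.09 ± 1.02 to 36.99 ± 5.69 CPM, and haptoglobin, Hp, from 1.37 ± 0.651 to 15.02 ± 9.98 CPM, a call lost with limma's voom with quality weights. Defb1, the defensin of the healthy tubule, fell from 349.8 ± 52.5 to 156 ± 32.2 CPM, and Wfdc15b fell from 201 ± 36.03 to 19.05 ± 12.4 CPM. Saa3 gave 0 reads in the 4 healthy kidneys and 0.191 to 14.6 (median 0.478) CPM in obstructed ones, with its highest value in obstructed kidney 6. In the mucin and epithelial surface list 10 of 22 rose, 6 fell and 6 did not pass, including a rise of Muc1 from 21.5 ± 5.03 to 67.3 ± 5.29 CPM and falls of Ceacam1 from 21.7 ± 1.72 to 9.61 ± 1.85 CPM and Prom2 from 40.8 ± 5.43 to 12.1 ± 2.65 CPM.

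The tissue kallikrein Klk1 frees kinin from kininogen in the distal nephron. It stood at 1439.5, 2085, 1539.7 and 2035 CPM in the healthy kidneys and 90.3 to 323 CPM (median 114) in the obstructed ones, log2 fold change of -3.56, SE 0.29, edgeR adjusted p = 4.17e-10. Its highest obstructed value, in kidney 6, was below the lowest healthy one. Of 13 kallikreins, membrane serine proteases and their inhibitors 4 rose, 8 fell and 1 did not pass. Prss8, the prostasin that activates the epithelial sodium channel, fell from 358 ± 53.5 to 172 ± 47.6 CPM, and the inhibitor Spink1 from 460.2 ± 51.2 to 177 ± 44.2 CPM. The Kunitz-type inhibitor gene Spint2 rose from 308 ± 40.7 to 492 ± 93.3 CPM. Reads of the Klk1b copies cannot be assigned with certainty.

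Transcription factors came last by role. Of 11 SOX genes 8 rose, 2 fell and 1 did not pass. Sox9, which marks repairing tubule epithelium, was at 0.977, 0.266, 0.168 and 0.883 CPM in the healthy kidneys and 29.8 to 48.6 CPM (median 33.7) in the obstructed ones, a log2 fold change of 6.01, SE 0.31, edgeR adjusted p = 4.14e-13. No obstructed kidney came near the healthy range. Sox4 rose from 31.5 ± 2.82 to 182 ± 28.5 CPM and Sox11 from 0.543 ± 0.225 to 8.59 ± 2.53 CPM, both genes of kidney development. Of 20 ETS genes 17 rose, 0 fell and 3 did not pass, and 1 fell without healthy kidney 2 or without obstructed kidney 1, 5 or 6. Spi1, the master regulator of myeloid cells, rose from 3.11 ± 0.693 to 27.1 ± 2.94 CPM, the epithelial Elf3 from 26.5 ± 1.93 to 95.5 ± 16.5 CPM and Ets1 from 31.2 ± 8.97 to 84.1 ± 13.8 CPM. Among C/EBP, RUNX, MAF and BATF genes 16 of 22 rose, 2 fell and 4 did not pass. Runx1 rose from 1.93 ± 0.2903 to 30.6 ± 6.05 CPM, Maff from 1.99 ± 0.546 to 26.5 ± 4.13 CPM and Cebpd from 4.41 ± 1.15 to 38.8 ± 12.7 CPM, while Maf fell from 355 ± 23.8 to 177 ± 29.2 CPM.

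Of 21 KLF and SP genes 12 rose, 5 fell and 4 did not pass. Klf6, an injury-induced factor, rose from 42.2 ± 4.39 to 294 ± 61.1 CPM, and Klf5 and Klf4 from 3.28 ± 1.68 to 11.02 ± 2.38 CPM and 10.3 ± 1.12 to 29.5 ± 2.98 CPM. Klf15 and Klf9, both glucocorticoid targets, fell from 118 ± 7.77 to 26.1 ± 5.12 CPM and 278 ± 9.95 to 159 ± 29.2 CPM. Of 31 ID, TWIST, SNAI and ZEB list genes 21 rose, 3 fell and 7 did not pass. The mesenchymal factors Prrx1, Twist1, Snai1 and Snai2 rose from 2.36 ± 1.46 to 22.2 ± 7.23 CPM, 0.425 ± 0.0768 to 3.08 ± 0.833 CPM, 1.95 ± 0.28005 to 9.47 ± 2.58 CPM and 2.13 ± 1.05 to 8.48 ± 2.24 CPM. Grhl2, a factor that keeps epithelium epithelial, rose too, from 12.4 ± 1.66 to 18.5 ± 2.48 CPM, a call lost with the GC content and length correction, and Id2, the most abundant member, at 315 ± 26.8 and 296 ± 48.6 CPM, did not pass. Ovol1 fell from 16.1 ± 1.83 to 7.42 ± 1.94 CPM.

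Of 99 chromatin enzymes 53 rose, 11 fell and 35 did not pass, and 17 fell without obstructed kidney 6. The shares that rose and fell were 53.5% and 11.1%, beside 36.2% and 28.6% over all genes. At least 2-fold there were 10 rises and 2 falls. These shares, 10.1% and 2.02%, were below the 19.6% and 10.7% over all genes. Uhrf1, which brings the maintenance methyltransferase to replicating DNA, rose from 1.38 ± 0.381 to 23.4 ± 5.26 CPM, and Dnmt1 itself from 32.4 ± 1.83 to 57.3 ± 11.7 CPM. Sirt3, the main mitochondrial deacetylase, fell from 96.7 ± 13.7 to 34.4 ± 13.5 CPM, and the mitochondrial Sirt4 and Sirt5 from 19.1 ± 2.36 to 11.4 ± 1.62 CPM and 16.8 ± 1.11 to 10.9 ± 0.6402 CPM. The call of Sirt5 was lost with library totals. Smarca2, a remodelling ATPase, fell from 289 ± 27.9 to 131 ± 21.2 CPM. Of 75 DNA repair genes 39 rose, 9 fell and 27 did not pass, 18 rises and no fall being at least 2-fold. The homologous recombination and Fanconi genes Brca1 and Fanci rose from 2.202 ± 0.544 to 9.36 ± 1.496 CPM and 0.626 ± 0.175 to 4.17 ± 0.845 CPM. The end-joining gene Xrcc5 fell by a smaller step, from 80.3 ± 3.28 to 62.9 ± 5.57 CPM, and its log2 fold change turned positive with library totals.

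Of 39 general splicing factors 12 rose, 4 fell and 23 did not pass, whereas of 37 cell type-restricted regulators 18 rose, 10 fell and 9 did not pass. Of the general factors 2 fell without healthy kidney 1 or 3 and 8 without obstructed kidney 6. Celf2 and Rbfox2 rose from 10.3 ± 3.42 to 30.7 ± 7.43 CPM and 22.2 ± 4.2002 to 58.002 ± 5.75 CPM. Of the epithelial regulators Esrp1 rose from 25.2 ± 3.73 to 34.7 ± 1.95 CPM, and Esrp2, Rbm47 and A1cf fell from 52.7 ± 4.68 to 35.1 ± 6.18 CPM, 229 ± 25.1 to 151 ± 12.4 CPM and 75.5 ± 14.02 to 33.99 ± 7.33 CPM. The call of Esrp1 was lost with the GC content and length correction, and those of Esrp2 and Rbm47 with library totals. Among histone genes 5 of 21 rose, 9 fell and 7 did not pass. Cenpa, the centromere histone, rose from 2.83 ± 0.866 to 10.3 ± 1.89 CPM, and the linker histone genes H1f0 and Hist1h1c fell from 243 ± 54.3 to 146 ± 15.7 CPM and 186 ± 55.2 to 86.6 ± 17.03 CPM. Clustered histone genes share sequence, so their counts are uncertain.

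Of 37 long non-coding and snoRNA host genes 9 rose, 8 fell and 20 did not pass. Over all tested genes annotated as long intergenic RNA, 64 of 384 rose and 156 fell, with a median of -0.36, and over protein-coding genes 5534 of 14385 rose and 4073 fell, with a median of 0.11. For genes annotated as antisense, 44 of 347 rose and 136 fell, but the sources used here do not say whether counting used strand, and reads of a gene and its antisense partner cannot be told apart. Neat1, the scaffold of nuclear paraspeckles, fell from 1031 ± 218 to 615 ± 201 CPM, a call lost with library totals.

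The paired host genes named with the microRNA sequences above moved in opposite directions. The miR-100 host, 3110039I08Rik, was at 5.06, 1.86, 3.71 and 2.65 CPM in the healthy kidneys and 4.41 to 20.4 CPM (median 13.6) in the obstructed ones, and the groups overlapped through obstructed kidney 6 (log2 fold change of 1.92, SE 0.32, edgeR adjusted p = 1.83e-05). The miR-99a host, Mir99ahg, was at 5.78, 4.61, 5.56 and 4.41 CPM in the healthy kidneys and 1.11 to 5.59 CPM (median 2.67) in the obstructed ones, also with overlap (log2 fold change of -0.74, SE 0.31, edgeR adjusted p = 0.0418), and its call was lost under 11 of 21 other settings. Dnm3os, the host of miR-199a and miR-214 and a transcript of mesenchymal cells, rose from 1.702 ± 1.18 to 11.1 ± 5.302 CPM, with a log2 fold change of 2.702, or 3.32 without healthy kidney 1, and Mir22hg fell from 44.2 ± 3.99 to 24.9 ± 6.19 CPM. The microRNAs themselves were not measured in these libraries.

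Among called genes above 20 CPM on average in obstructed kidneys, the coefficient of variation over the 7 was largest for the alpha-globin genes Hba-a1 and Hba-a2 of red blood cells, at 115% and 112%. Obstructed kidney 6 held 103 CPM of Hba-a1 where the other 6 held at most 23.9 CPM, and 76.02 CPM of Hba-a2 where they held at most 16.6 CPM. Both were called lower in obstructed kidneys, and both calls were lost with library totals, in the fit of the 11 libraries alone and without healthy kidney 1 or 4. The log2 fold change of Hba-a1 was -1.22 with all kidneys and -2.08 without obstructed kidney 6, and that of Hba-a2 was -1.11 and -1.95. The call of Hba-a2 was also lost in the robust fit and without any 1 of the other 6 obstructed kidneys. The coefficient was 85.4% for Egf, 84.1% for the organic anion carrier gene Slc22a7 and 79.2% for the fatty acid hydroxylase gene Cyp4a14. At the other end, it was 1.89% for the chromatin remodeller gene Ino80 and 2.91% for Ctnna1, the alpha-catenin of cell junctions. Ino80 rose from 28.3 ± 1.49 to 37.9 ± 0.717 CPM and Ctnna1 from 401 ± 16.8 to 516 ± 15.01 CPM, and the call of Ctnna1 was lost with the GC content and length correction. Several variable genes had their extreme value in obstructed kidney 6: Slpi, a protease inhibitor, was at 25.5 CPM there and at most 8.29 CPM in the other 6 kidneys, and transthyretin, Ttr, was at 45.4 CPM there and at most 24.8 CPM elsewhere in the group.

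**Figure D4:**
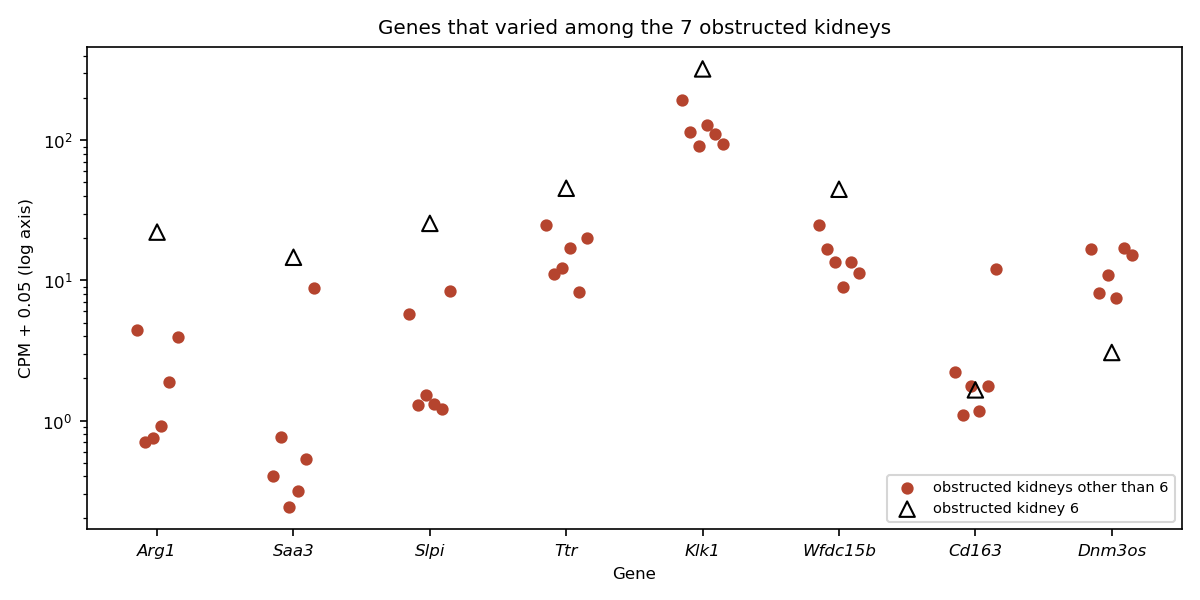
CPM (log axis, after adding 0.05 for display) of 8 genes in the 7 obstructed kidneys, with obstructed kidney 6 drawn as a triangle and the other 6 as circles. Kidney 6 holds the highest value of Arg1, Saa3, Slpi, Ttr, Klk1 and Wfdc15b, whereas Cd163 peaks in kidney 7 and Dnm3os is lowest in kidney 6.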

How the data were processed

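Whole-kidney RNA of 19 mice was sequenced; 7 obstructed vehicle and 4 healthy kidneys are compared. The deposited values are raw counts per gene for 55536 genes. The submitters' processing notes name the aligner STAR 2.7.0f and the build GRCm38. Which program counted the reads, and with which strand setting and annotation, is not given in the sources used here. All gene identifiers matched GENCODE M21, which gave names, positions and exon lengths.

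Groups were taken from the treatment labels. The function filterByExpr of edgeR, with a minimum count of 10 and a total of at least 15, kept 16026 genes. Counts were scaled by TMM and tested with edgeR 4.0.16 (quasi-likelihood test, R 4.3.3) in 1 fit of 3 groups over 19 libraries, and p-values were Benjamini-Hochberg adjusted over all genes tested, with a threshold of 0.05. The p-values set group differences against the spread between samples, estimated over all 19 libraries. In the fit of the 11 libraries alone, 5266 genes were called higher and 4181 lower of 15559 tested. Library totals of 13144996 to 14844103 counts set the precision. The code was tested on simulated data. Alternatives were DESeq2 1.42.0, limma 3.58.1 (voom), other scalings and filters, a fit of the 11 libraries, a GC content and length correction, and leaving out each library.

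The 56 gene lists hold 2157 entries, of which 7 matched through RefSeq synonyms and 4 did not match. Members and lists were chosen with earlier results of these data known. In each list, genes of at least 1 CPM were named when they were among the 3 largest rises or falls, in a direction of at most 5 calls, or the most abundant; over all genes, the rule took 20 rises and falls of at least 5 CPM, 10 gains and losses in CPM, and 10 genes at each end of the variation ranking above 20 CPM. Not every gene under the rule is printed, and further list members were chosen after their values were seen. Promoter and microRNA sequences come from RefSeq's tables for GRCm38.p6. Some genes and 1 family of these lists are not reported here.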

Additional observations from a re-analysis of the deposited data

Results flagged for a closer look

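Of 580 sets of values tested, 1 for each gene named with a value and each of the healthy and obstructed groups, 60 (10.3%) had their highest or lowest kidney apart from the rest by Dixon's criterion. Chance gives about 5% for normally distributed values of genes not chosen by their values. Some of these genes were named for their variation or after their values were seen, so the 10.3% cannot be compared with that 5%. They were 19 in healthy and 41 in obstructed kidneys, and obstructed kidney 6 accounts for 31. No cause was tested.

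In obstructed kidney 6 the highest values of the group were those of Ahcy, Aldh1l1, Arg1, Cbs, Dnmt1 and Eefsec, at 69.9, 417, 22.1, 167, 82.4 and 37.7 CPM. In obstructed kidney 6 the highest values of the group also were those of Esrp2, Fars2, Folr1, Foxj1, Hba-a1 and Hba-a2, at 47.8, 54.8, 293, 25.7, 103 and 76.0 CPM. In obstructed kidney 6 the highest values of the group also were those of Lpar3, Mthfd1, Ngfr, Pde4c, Piezo1 and Prss8, at 18.4, 157, 15.7, 70.1, 237 and 273 CPM. In obstructed kidney 6 the highest values of the group also were those of Sirt3, Slpi, Stat3, Tspan1, Ube2l6 and Uhrf1, at 62.6, 25.5, 264, 32.9, 22.2 and 34.3 CPM. In obstructed kidney 6 the lowest values of the group were those of Cp, Hnmt, Klf6, Kng1, Lifr and Pros1, at 377, 3.81, 159.8, 2.88, 59.4 and 52.6 CPM. Xrcc5 was also lowest in obstructed kidney 6, at 51.4 CPM.

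In obstructed kidney 2 the highest values of the group were those of Ddah2, Gdf15, Myc and Spink1, at 69.7, 98.8, 72.3 and 272 CPM. In obstructed kidney 4 the highest values of the group were those of Esrp1, Hspa1b, Hspd1, Nt5e and Selenop, at 38.6, 142, 406, 280.0 and 2003 CPM. Cd163 was highest in obstructed kidney 7, at 11.9 CPM.

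In healthy kidney 1 the highest values of the group were those of Dnm3os, Piezo1 and Scube1, at 3.46, 120.1 and 3.73 CPM. In healthy kidney 1 the lowest values of the group were those of Apom and Slpi, at 74.7 and 0 CPM. In healthy kidney 2 the highest values of the group were those of Kdelr3 and Lgals3, at 2.93 and 38.8 CPM. Arg1 was highest in healthy kidney 3, at 0.168 CPM. In healthy kidney 3 the lowest values of the group were those of Adcy7 and Cebpd, at 3.37 and 2.69 CPM. In healthy kidney 4 the highest values of the group were those of Chpt1, Ezr, Lpl, Mttp, Sepsecs and Sorcs1, at 3742, 580.5, 2276, 34.8, 92.6 and 0.883 CPM. St8sia2 was also highest in healthy kidney 4, at 0.196 CPM. In healthy kidney 4 the lowest values of the group were those of Kng2 and S100a14, at 317 and 0.785 CPM.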

How the results depend on the processing

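The comparison was recomputed under 21 alternatives: other scalings, tests, filters and samples in the fit, a GC content and length correction, and each of the 11 libraries left out in turn. Of 6088 log2 fold changes of named genes, 6006 kept their direction and their side of the threshold, 55 lost the call, 18 gained it and 9 reversed; 258 of 290 genes kept both under every alternative. Library totals called 9368 genes higher and 2344 lower, 868 of them at least 2-fold lower, against 5799, 4588 and 1707. Family members called lower numbered 246 with library totals and 753 with the GC content and length correction, against 500. Of 4704 counts of single families 4438 stayed within 1.5 times and 266 did not. The cause was not tested.

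Reversed log2 fold changes with library totals were 0.26 for Gas6, 0.24 for Hspa8, 0.33 for Id2, 0.25 for Lifr, 0.21 for Pkd2, 0.16 for Psat1, 0.15 for Ptch1 and 0.074 for Xrcc5. With 1 library left out Hspa8 ran from -0.36 to 0.13, the latter without healthy kidney 4. Leaving out 1 library gave 5451 to 5899 genes higher, 4310 to 5300 lower, 3071 to 3273 at least 2-fold higher and 1650 to 1930 at least 2-fold lower, and 804 to 855 family members higher and 471 to 591 lower. No paired analysis was possible because the replicate numbers only follow the order of the samples. Totals of 13144996 to 14844103 counts leave genes with a few reads in healthy kidneys with imprecise fold changes.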
